A study of Mus musculus with 16 samples.

Results

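Egr1, Egr2, Egr3, Arc, Nr4a1, Ier2, Ier3, Ier5, Myc and Srf are 10 genes of the immediate-early class. They were followed through RNA-seq counts of 16 libraries of mIMCD3 cells, a mouse inner medullary collecting duct line. The genes were chosen by their difference between SFN and DMSO in isosmotic WT cells, in which this class was lower with SFN. They are 10 of the 55367 genes in the files, and all 10 passed the filter on low counts that left 19509 genes for testing. Because of that choice, every comparison that uses an isosmotic WT library is given below as a description of the 10 genes with no test, and tests of the 10 genes are kept to comparisons that use other libraries.

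Immediate-early genes are transcribed within minutes of a signal, without new protein synthesis, because the factors that switch them on are already present in the cell. The MAP kinase pathway phosphorylates ternary complex factors that sit with serum response factor (SRF) on serum response elements, and CREB family factors act on cAMP response elements. The transcripts are short-lived, and many of their products are transcription factors or feedback inhibitors of the same signal. In cells of the renal medulla, hyperosmotic medium is a known activator of MAP kinases.

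WT cells were exposed for 5 h to the solvent DMSO or to 10 µM SFN (sulforaphane, an activator of the transcription factor Nrf2), and were then sampled under isosmotic conditions or after 1 h or 6 h in medium of 600 mOsm. Nrf2-/- cells, made with lentiviral Cas9 and drug selection, were sampled after SFN alone and after SFN with 1 h of hyperosmotic stress. Each of the 8 groups had 2 libraries. The labels give no separate isosmotic groups for 1 h and 6 h, so hours of stress and hours since the start of the exposure cannot be told apart. Whether the Nrf2-/- cells are 1 clone or a pool is not given in the sources used here. Those sources describe no WT line put through the same Cas9 and drug selection. Nrf2 loss therefore cannot be told apart from the making of the line. Nrf2-/- cells with DMSO were not analysed here. Genotype effects are thus comparisons within SFN-treated cells, and the response to SFN itself has no Nrf2-/- counterpart.

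Library totals lay between 34484296 and 50774875 counts. Nfe2l2, which encodes Nrf2, had 386 to 433 counts in the 4 Nrf2-/- libraries and 2496 to 5013 in the 12 WT libraries. The epithelial markers Krt8, Krt18, Krt7, Krt19, Cdh1 and Epcam were abundant, while Aqp2, the defining water channel of principal cells, had at most 11 counts and was at 0 in 8 libraries. The biological coefficient of variation between the libraries of a group was 0.0393 to 0.128 in 7 groups and 0.348 in the Nrf2-/- SFN 1 h pair, which stands apart. Calls in comparisons that use that pair are given with and without each of its libraries. Through the spread shared by all 16 libraries, the pair also enters the main tests between WT groups. For those, it was absent only from the fits on the 12 WT libraries and on only the libraries compared.

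The promoter sequences below are shown because they differ in the motifs searched. They come from RefSeq (GRCm38.p6), which matched 5 of the 10 genes, Egr2, Nr4a1, Ier3, Ier5 and Srf, and they cover up to 250 bases before a transcription start, cut where an annotated exon begins. Motifs were searched on both strands, and capitals mark their matches. Egr2, chr10:67537619-67537868, plus strand, holds a CArG box (the core of the serum response element) and a match to TGACNNNGC, the core of the antioxidant response element bound by Nrf2. Egr2 had several windows, and so more chances of a match than a gene with a single window. That at chr10:67535249-67535498 held none of the motifs, and that at chr10:67537316-67537565 held only another CArG box. The rest overlap the window shown.

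Egr2: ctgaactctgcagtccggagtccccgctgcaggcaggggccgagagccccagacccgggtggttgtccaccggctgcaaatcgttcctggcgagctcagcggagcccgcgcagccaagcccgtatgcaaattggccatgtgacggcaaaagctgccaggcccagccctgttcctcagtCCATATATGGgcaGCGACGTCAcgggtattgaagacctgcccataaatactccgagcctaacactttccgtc

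Srf, chr17:46556176-46556412, minus strand, holds a pair of CArG boxes and 1 match to GCGGGGGCG, the sequence recognised by the Egr zinc fingers.

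Srf: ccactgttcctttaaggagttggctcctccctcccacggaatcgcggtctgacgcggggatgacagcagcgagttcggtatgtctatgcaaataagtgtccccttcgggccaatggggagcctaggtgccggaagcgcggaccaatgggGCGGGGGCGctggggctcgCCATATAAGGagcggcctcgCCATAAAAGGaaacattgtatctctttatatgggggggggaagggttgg

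Nr4a1, chr15:101266596-101266845, plus strand, holds 4 copies of TGCGTCA, a relative of the cAMP response element that was searched for after the sequence had been seen, and 1 match to GCGGGGGCG.

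Nr4a1: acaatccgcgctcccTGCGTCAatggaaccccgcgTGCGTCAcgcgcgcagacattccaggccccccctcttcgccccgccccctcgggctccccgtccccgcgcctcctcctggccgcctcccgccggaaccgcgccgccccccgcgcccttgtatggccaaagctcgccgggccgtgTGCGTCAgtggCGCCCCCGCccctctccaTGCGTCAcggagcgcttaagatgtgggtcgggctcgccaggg

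Ier3, chr17:35821463-35821683, plus strand, holds 1 match to the NF-kB consensus.

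Ier3: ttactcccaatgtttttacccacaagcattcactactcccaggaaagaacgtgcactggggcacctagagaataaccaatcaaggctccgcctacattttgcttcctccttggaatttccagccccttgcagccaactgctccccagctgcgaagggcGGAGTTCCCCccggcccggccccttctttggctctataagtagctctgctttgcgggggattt

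Among 32851 promoter windows of the same length, a CArG box was found in 1.47%, TGCGTCA in 1.75%, GCGGGGGCG in 2.57%, the NF-kB consensus in 3.9% and TGACNNNGC in 10.2%. The full cAMP response element was found in 1.55% and in none of the 5 genes' windows, and the Ier5 window held none of the motifs searched. A match describes letters in the window and says nothing about binding in these cells.

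The genes were compact. By GENCODE M21 on GRCm38, their median span was 5073 bases against 15302 for all tested genes, and 9 of the 10 lay below that median. Their median number of exons was 3 against 6, and Ier2 (chr8:84661331-84662852) and Ier5 (chr1:155096361-155099636), both on the minus strand, were annotated with 1 exon each. No exon of the 10 genes overlapped an exon of another gene. Per length, Ier3 was the most abundant in isosmotic DMSO-treated WT cells, at 170 ± 20.5 RPKM (counts scaled by exonic length and library size, SD, n = 2). Myc at 111 ± 5.70 and Ier2 at 111 ± 9.46 RPKM followed and did not differ beyond their spread. Egr1 was at 56.4 ± 2.79 RPKM, Srf at 46.5 ± 2.08, Ier5 at 37.4 ± 0.203, Arc at 20.3 ± 1.23 and Nr4a1 at 16.8 ± 0.471. Egr2 at 0.71 ± 0.195 and Egr3 at 0.25 ± 0.0788 RPKM were the lowest, with 15 to 130 and 0 to 63 counts a library over all 16 libraries.

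**Figure D1:**
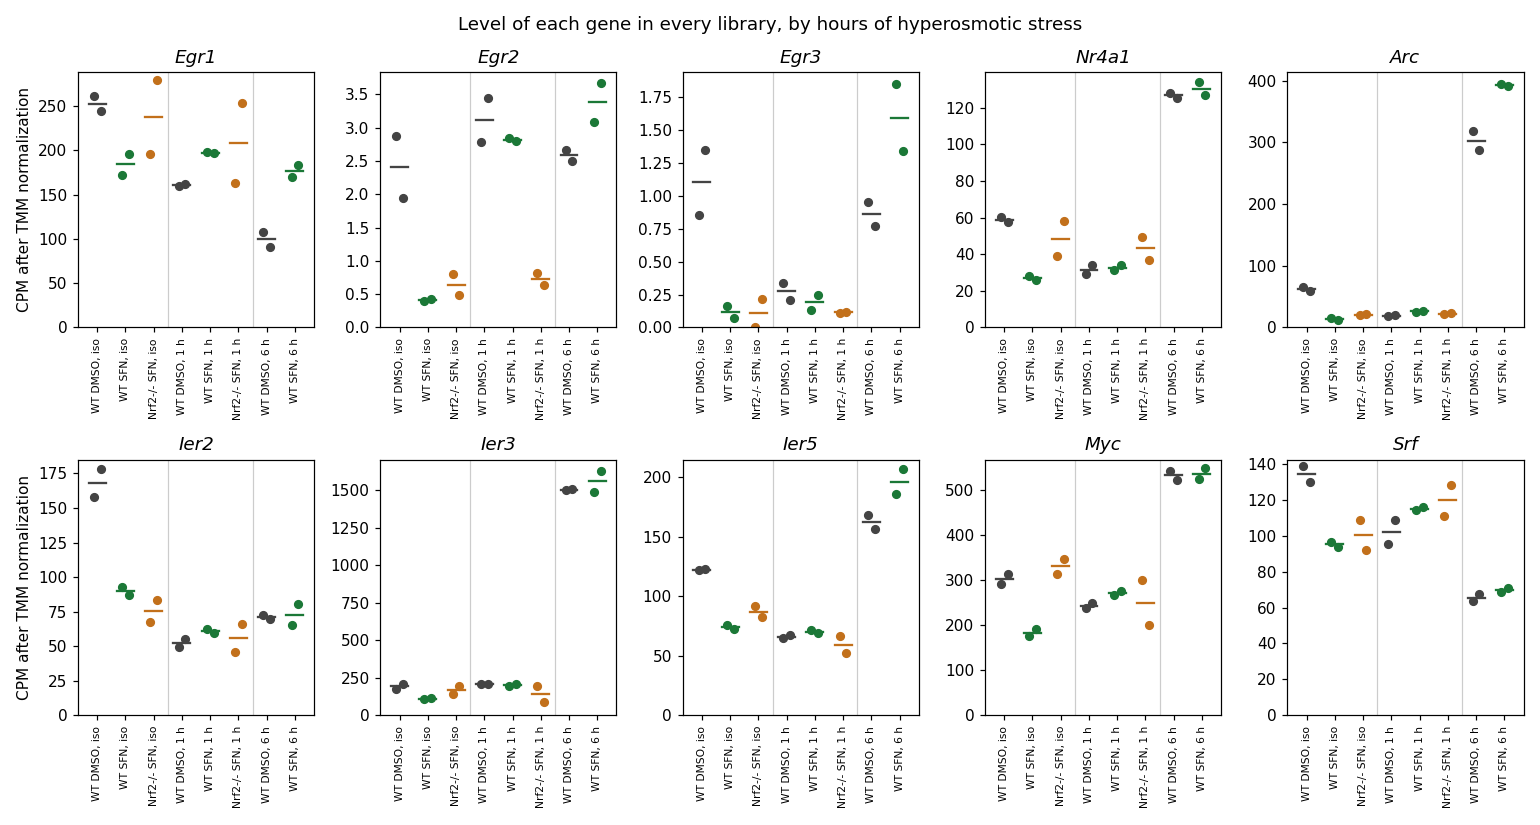
Level of each of the 10 genes in all 16 libraries, in CPM (counts scaled by library size) after TMM normalization on a linear axis from 0. Points are libraries, short lines are means of 2 libraries, dark grey is WT DMSO, green is WT SFN and orange is Nrf2-/- SFN, and vertical lines separate isosmotic cells, 1 h and 6 h of hyperosmotic stress. Arc, Ier3, Nr4a1 and Myc stand highest in the 4 libraries of the 6 h groups.

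In isosmotic WT cells, the comparison that chose them, all 10 genes were lower with SFN, and for each gene both SFN libraries lay below both DMSO libraries. Of all tested genes, 24% had both SFN libraries below both DMSO libraries, and by edgeR's adjusted p 1.76% were called lower and 1.09% higher in this contrast. Arc, a cytoskeletal protein best known from synapses, had 64.7 and 59.4 CPM (counts scaled to a common library size) with DMSO and 15.0 and 12.8 CPM with SFN, a log2 fold change of -2.16 (SE 0.11). Egr2 had 121 and 88 counts in the DMSO libraries and 15 and 23 in the SFN libraries (log2 fold change -2.53, SE 0.33). Egr3 went from 36 and 61 counts to 6 and 4 (-3.25, SE 0.77), so its fold rests on few counts. Egr1 differed least of the 10, with 262 and 244 CPM against 172 and 196 CPM (-0.46, SE 0.18). The other genes had log2 fold changes of -1.12 for Nr4a1, an orphan nuclear receptor, -0.90 for Ier2, -0.80 for Ier3, -0.72 for Ier5, -0.72 for Myc and -0.50 for Srf. The summed level of 12 collecting duct markers was 2001 to 2242 CPM in the SFN libraries and 2991 to 3387 CPM in the DMSO libraries. In every library this sum came mostly from the general epithelial markers Krt7, Krt8, Krt18, Krt19, Cdh1 and Epcam. Aqp2, Aqp3, Avpr2, Scnn1a and Gata3 each stayed at or below 6.65 CPM, so the sum is no measure of collecting duct identity. Its part in the difference was not tested. In bulk RNA, fewer cells of a kind and less RNA per cell cannot be told apart.

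After 1 h of hyperosmotic stress, none of the 10 genes differed between SFN and DMSO by the main test. In this comparison, which shares no library with the one that chose the genes, 0 of the 10 were called by edgeR in either direction, against 0.0923% of all genes called higher and 0% called lower. At an unadjusted p under 0.05, 1 of the 10 genes and 669 of all genes passed. Arc was at 17.7 and 19.5 CPM with DMSO and at 25.7 and 26.0 CPM with SFN. Both SFN libraries were higher, but the log2 fold change of 0.47 (SE 0.11, adjusted p = 0.325, edgeR) did not pass. DESeq2 called it (adjusted p = 0.0461), as did edgeR fitted on the 12 WT libraries alone (adjusted p = 0.00946), an alternative added after the data were seen. Fitted on only the 4 libraries compared, edgeR called 5 of the 10 genes higher, Egr1 (0.29, adjusted p = 7.1e-07), Arc (0.47, 0.000445), Ier2 (0.23, 0.0196), Myc (0.15, 0.00312) and Srf (0.17, 0.0346). The 95% intervals of the log2 difference were -0.10 to 0.69 for Egr1, -0.31 to 0.41 for Nr4a1, -0.60 to 0.50 for Ier3 and -0.15 to 0.46 for Myc. Egr2, with 123 and 130 counts in the DMSO libraries and 109 and 112 in the SFN libraries, had an interval of -0.75 to 0.47.

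After 6 h, all 10 log2 fold changes of SFN against DMSO were above 0, with a median of 0.18 against 0.00081 over all genes, yet 0 of the 10 genes passed the test, against 0.041% of all genes called higher and 0% called lower. At an unadjusted p under 0.05, 3 of the 10 genes and 718 of all genes passed. Egr1, a zinc finger transcription factor, was at 108 and 91.3 CPM with DMSO and at 170 and 184 CPM with SFN. The groups did not overlap and the log2 fold change was 0.82 (SE 0.19), with an adjusted p of 0.521 from edgeR. DESeq2 (adjusted p = 0.0489), edgeR without the filter on low counts (1.28e-06) edgeR on the 12 WT libraries (7.72e-06) and edgeR on only the 4 libraries compared (1.66e-07) each called it. Arc was at 317 and 287 CPM with DMSO and at 395 and 391 CPM with SFN (log2 fold change 0.38, SE 0.10, adjusted p = 1), and was called with only the 4 libraries compared (adjusted p = 0.0014) and with the 12 WT libraries (0.0378). Nr4a1, Ier2, Ier3 and Myc overlapped between SFN and DMSO, with log2 fold changes of 0.01 to 0.05, and each of these fell below 0 in a fit that left out a library. The SFN effect at 6 h minus that at 1 h was called for 0 of the 10 genes, against 0% of all genes called higher and 0.0103% called lower, with 0 of the 10 and 570 of all genes at an unadjusted p under 0.05. For Egr1 that difference was 0.53 (95% interval -0.03 to 1.09), and it was called with only the libraries compared (0.52, adjusted p = 0.00194).

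**Figure D2:**
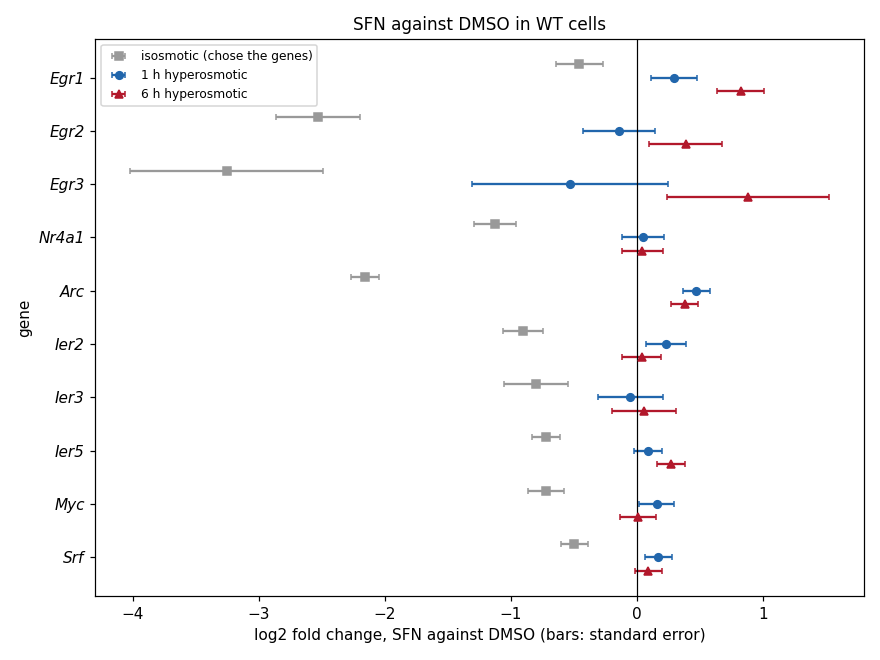
Log2 fold change of SFN against DMSO in WT cells for each gene, with a standard error derived from the edgeR F statistic. Squares are isosmotic cells (the comparison that chose the genes), circles 1 h and triangles 6 h of hyperosmotic stress. All 10 squares lie below 0, from -3.25 to -0.46, and all 10 triangles lie above 0. The triangles of Nr4a1, Ier2, Ier3 and Myc, at 0.01 to 0.05, fell below 0 in fits that left out a library.

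Among the tested comparisons, these genes moved most between the early and the late time of stress. Between 1 h and 6 h in DMSO-treated WT cells, 6 of the 10 genes rose and 2 fell by edgeR, where 20.4% of all genes rose and 22% fell. In SFN-treated cells 6 rose and 1 fell, where 20.9% of all genes rose and 21.7% fell. The median log2 fold change of the 10 genes was 1.21 with DMSO and 1.23 with SFN, against -0.00076 and 0 over all genes.

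Arc moved most. It rose from 17.7 and 19.5 CPM at 1 h to 317 and 287 CPM at 6 h with DMSO, a 16.2-fold change (log2 fold change 4.02, SE 0.12, adjusted p = 2.08e-11, edgeR), and 15.2-fold with SFN (3.93, SE 0.12, adjusted p = 2.68e-11). Nr4a1 rose from 29.1 and 34.1 CPM to 128 and 125 CPM with DMSO (4.01-fold, log2 SE 0.17, adjusted p = 4.17e-07) and 3.99-fold with SFN (adjusted p = 4.34e-07). Both genes were far above their spread between libraries, with no overlap between times.

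Of the Ier genes, Ier2 and Ier5 encode related proteins and Ier3 an unrelated one, and they moved by different amounts. Ier3, a short-lived regulator of cell survival, stood at 207 and 208 CPM at 1 h and at 1499 and 1505 CPM at 6 h with DMSO (log2 fold change 2.86, SE 0.27, adjusted p = 2.9e-06), and rose by 2.96 with SFN (adjusted p = 2.16e-06). Ier5 rose from 64.8 and 67.5 CPM to 168 and 157 CPM with DMSO (1.30, SE 0.11, adjusted p = 5.14e-07) and by 1.48 with SFN (adjusted p = 1.47e-07). Ier2 rose by 0.44 with DMSO (SE 0.16, adjusted p = 0.0355), a call lost without any 1 of the 4 libraries compared (adjusted p 0.0691 to 0.22) and with scaling by library totals (0.22, adjusted p = 0.261). With SFN its log2 fold change was 0.25 and did not pass (adjusted p = 0.224), but it was called with only the 4 libraries compared (0.28, adjusted p = 0.0144) and with the 12 WT libraries (0.26, adjusted p = 0.0204).

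Myc, a growth regulator, rose from 238 and 248 CPM to 542 and 522 CPM with DMSO (1.13, SE 0.14, adjusted p = 1.82e-05) and by 0.99 with SFN (adjusted p = 6.17e-05). Srf, which encodes the factor that binds CArG boxes, went the other way. It fell from 95.4 and 109 CPM to 63.7 and 67.5 CPM with DMSO (-0.64, SE 0.11, adjusted p = 0.00024) and by 0.72 with SFN on the log2 scale (adjusted p = 8.68e-05).

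The Egr genes did not move together. Egr1 fell with DMSO from 160 and 162 CPM to 108 and 91.3 CPM (-0.69, SE 0.19, adjusted p = 0.00752), a call lost without DMSO 6 h replicate 2 (-0.58, adjusted p = 0.0784), and with SFN its log2 fold change was -0.16 (adjusted p = 0.522). Egr3 rose with SFN from 5 and 10 counts to 63 and 43 counts (3.04, SE 0.73, adjusted p = 0.00357). With DMSO it had 15 and 8 counts at 1 h and 33 and 25 counts at 6 h (1.63, SE 0.70, adjusted p = 0.0765), which passed with DESeq2 (adjusted p = 0.0382) with only the 4 libraries compared (0.017) and with the 12 WT libraries alone (0.0161). Egr2 stayed between 81 and 130 counts in all 8 hyperosmotic WT libraries, and its 95% interval between times was -0.89 to 0.35 with DMSO.

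The TMM factors of the 6 h libraries were 0.903 to 0.911, against 1.04 to 1.06 at 1 h, and scaling by library totals alone moved the median of all genes by -0.22 with DMSO and -0.20 with SFN. The summed level of 15 markers of fibroblasts, endothelium, leukocytes, proximal tubule and podocytes was 45.8 to 54.4 CPM in the 4 libraries at 6 h and 22.8 to 25.5 CPM in the 4 at 1 h, with 1 to 2 and 4 to 6 of the 15 at 0. Their part in the changes was not tested.

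**Figure D3:**
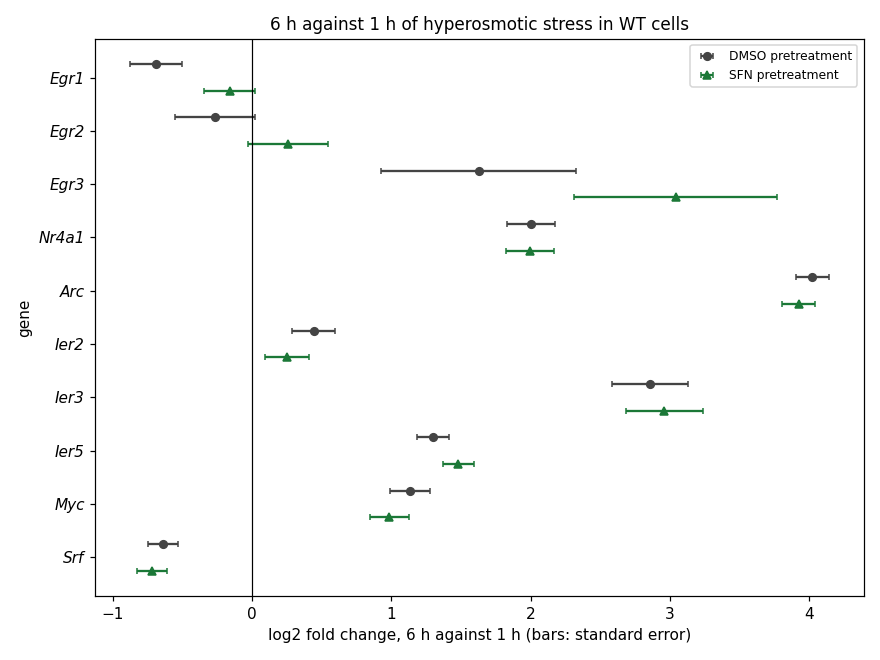
Log2 fold change from 1 h to 6 h of hyperosmotic stress for each gene with its standard error, in WT cells pretreated with DMSO (circles) or SFN (triangles). Arc, Ier3, Nr4a1, Ier5, Myc, Egr3 and Ier2 lie above 0 and Srf and Egr1 below 0 in both pretreatments. Of these, Egr3, Ier2 and Egr1 passed the main test in a single pretreatment each. Egr2 lies below 0 with DMSO and above 0 with SFN, and passed in neither.

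Against isosmotic cells the same levels read differently for the early and the late time, and the following values describe the genes without a test because they use the libraries that chose them. With DMSO, 8 of the 10 genes were lower at 1 h in both libraries, while Egr2 (0.37) and Ier3 (0.11) overlapped. Of all genes, 29.1% were lower at 1 h in both libraries, and by adjusted p 4.11% were called lower and 7.1% higher. The log2 fold change was -1.74 for Arc and -1.69 for Ier2. At 6 h with DMSO, 5 genes lay above isosmotic cells in both libraries, Ier3 (2.97), Arc (2.28), Nr4a1 (1.10), Myc (0.81) and Ier5 (0.41), and 3 lay below, Egr1 (-1.34), Ier2 (-1.24) and Srf (-1.04). Of all genes, 39.3% lay above and 36.3% below in both libraries, and 23.9% were called higher and 22% lower.

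With SFN, where the isosmotic level was the low one, 7 genes were higher at 1 h in both libraries and 2 were lower. Of all genes, 30.6% were higher and 26% lower in both libraries, and 5.94% were called higher and 3.58% lower. Egr2 had the largest of these differences, 2.75 (SE 0.33), from 15 and 23 counts to 109 and 112 counts. At 6 h with SFN, 7 genes were higher and 2 lower in both libraries, where 41.1% and 35.2% of all genes were. By adjusted p, 24.7% of all genes were called higher and 22.9% lower. Arc was 28.3-fold, Ier3 14.1-fold and Egr3 13.8-fold above isosmotic SFN-treated cells. The genes were picked for the gap between the isosmotic SFN and DMSO libraries, so the sizes of the SFN and DMSO folds are not compared.

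In SFN-treated cells after 1 h of stress, Egr2, a zinc finger factor of the Egr family, was lower in Nrf2-/- than in WT cells. The Nrf2-/- libraries had 29 and 22 counts and the WT libraries 109 and 112 counts, a log2 fold change of -1.95 (SE 0.32, adjusted p = 0.000292, edgeR). Without Nrf2-/- replicate 1 the value was -2.14 (adjusted p = 0.000227) and without replicate 2 it was -1.78 (adjusted p = 0.00193). Egr2 was the only one of the 10 genes called, with 0 higher and 1 lower, where 15.3% of all genes were called higher and 16.2% lower, so the count itself is no larger than the background. Markers of both lists moved with the genotype in the same libraries, in both directions. Krt7 was at 1308 and 959 CPM in Nrf2-/- and 310 and 312 CPM in WT cells, and Epcam at 373 and 190 against 73.5 and 74.7 CPM. Krt19 was lower in Nrf2-/-, at 426 and 318 against 479 and 461 CPM, as was Gata3, at 0.34 and 0.78 against 3.10 and 3.65 CPM. Among markers of other cells, Lrp2, of proximal tubule, was at 0.057 and 0.46 against 8.32 and 7.90 CPM. Col3a1, of fibroblasts, went the other way, with 57 and 54 counts in Nrf2-/- and 0 and 0 in WT libraries. The summed level of the 12 collecting duct markers was 4200 and 3512 CPM against 2803 and 2791 CPM, and that of the 15 markers of other cells was 14.6 and 14.4 CPM against 22.9 and 22.8 CPM, with 5 and 5 of them at 0 in Nrf2-/- and 4 and 6 in WT libraries. Their part in the differences between genotypes was not tested.

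Of the other 9 genes, 6 were called when 1 library of the Nrf2-/- pair was left out. Ier3 had 194 and 88.8 CPM in the Nrf2-/- libraries against 193 and 207 CPM in WT. Its log2 fold change was -0.50 (adjusted p = 0.162) with both, -1.16 (adjusted p = 6.09e-06) without replicate 1 and -0.048 (adjusted p = 0.864) without replicate 2, and it was called without the filter on low counts (-0.51, adjusted p = 0.000124). Myc had 299 and 200 CPM against 266 and 275 CPM in WT, with -0.12 (adjusted p = 0.58) from both libraries, -0.43 (0.000261) without replicate 1 and 0.14 (0.249) without replicate 2. Ier5 had 66.4 and 52.3 CPM against 71.5 and 69.2 CPM, with -0.24 (adjusted p = 0.116) from both, -0.42 (0.000758) without replicate 1 and -0.084 (0.586) without replicate 2, and it was called with scaling by library totals (-0.34, adjusted p = 0.0368). For these 3 genes the lower values came from replicate 2.

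The other 3 were called when replicate 2 was left out. Nr4a1 had 49.6 and 36.9 CPM against 31.3 and 34.2 CPM (0.40, adjusted p = 0.0831). It passed without replicate 2 (0.60, adjusted p = 0.00955), with DESeq2 (0.44, adjusted p = 0.0418) and without the filter (0.39, adjusted p = 0.0361), and not without replicate 1 (0.19, adjusted p = 0.397). Ier2 had 46.1 and 66.3 CPM against 62.7 and 59.8 CPM, with -0.13 (adjusted p = 0.597) from both, 0.13 (0.454) without replicate 1 and -0.41 (0.0157) without replicate 2. Arc had 21.0 and 23.9 CPM against 25.7 and 26.0 CPM, with -0.20 (adjusted p = 0.182) from both, -0.099 (0.5) without replicate 1 and -0.30 (0.0378) without replicate 2, and it was called with scaling by library totals (-0.31, adjusted p = 0.0391). The 95% intervals were -0.31 to 0.47 for Egr1, -0.43 to 0.03 for Arc and -0.17 to 0.29 for Srf. Egr1, Egr3 and Srf were not called without either library.

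Within Nrf2-/- cells, Ier5 fell after 1 h of stress and no other of the 10 genes passed the test by edgeR, where 4.36% of all genes were called higher and 2.81% lower. Ier5 went from 91.4 and 82.8 CPM to 66.4 and 52.3 CPM (-0.55, SE 0.11, adjusted p = 0.00802). The call was lost without Nrf2-/- isosmotic replicate 1 (-0.48, adjusted p = 0.0841) and with only the 4 libraries compared (adjusted p = 0.366), and it was kept without 1 h replicate 1 (-0.74, adjusted p = 2.31e-06) or 1 h replicate 2 (-0.39, adjusted p = 0.00415). Without 1 h replicate 1, Ier3 (-0.92, adjusted p = 0.000299), Myc (-0.73, 9.71e-07) and Srf (0.34, 0.0117) were called as well, and without 1 h replicate 2 Egr1 (-0.55, 0.037) and Ier2 (-0.71, 0.000361) were. Without the filter on low counts, Ier2 (-0.43, adjusted p = 0.0361) and Myc (-0.41, 0.0142) were called. Egr2 had 28 and 18 counts before and 29 and 22 counts after stress, with a 95% interval of -0.56 to 0.94 for its log2 difference. Set beside the 2.75 described for WT cells with SFN, the difference between genotypes in this response was not tested, since it uses the isosmotic WT libraries.

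In isosmotic SFN-treated cells, described without a test, Nrf2-/- libraries were above both WT libraries for 6 of the 10 genes, where 31.6% of all genes were above and 34.6% below in both libraries. By adjusted p, 15.7% of all genes were called higher and 18.4% lower. Myc (0.85), Nr4a1 (0.84) and Egr2 (0.62) had the largest log2 fold changes, and Ier2 (-0.26) was lower in both. Arc was at 20.5 and 21.4 CPM in these Nrf2-/- libraries.

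**Figure D4:**
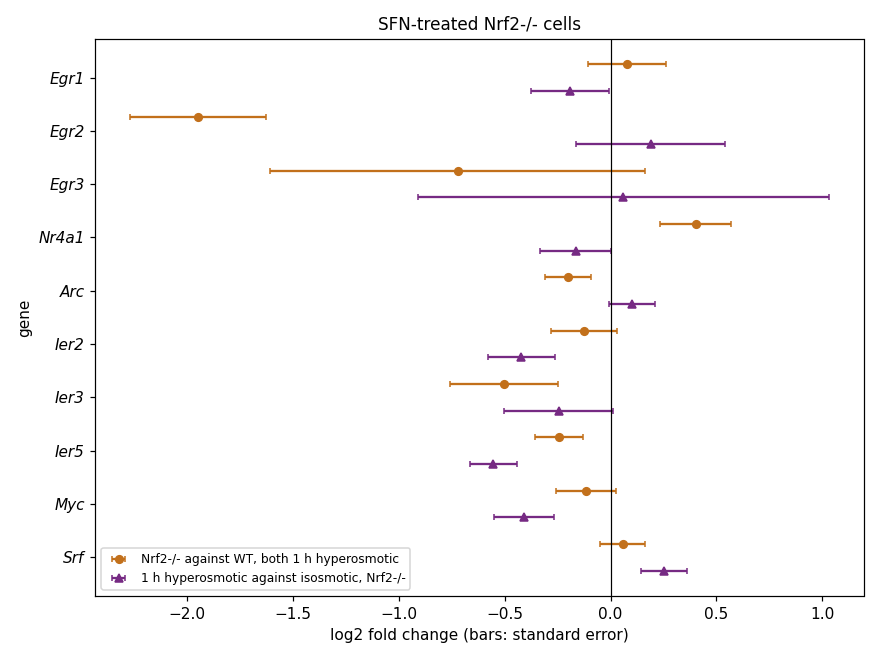
Log2 fold change with its standard error for each gene in SFN-treated cells, for Nrf2-/- against WT after 1 h of hyperosmotic stress (circles) and for 1 h against isosmotic Nrf2-/- cells (triangles). Egr2 at -1.95 among the circles and Ier5 at -0.55 among the triangles are the values that passed the test.

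Related genes are given from lists that were drawn up with earlier results known. Of the 5 tested paralogues, 4 rose between 1 h and 6 h with DMSO and with SFN, where 20.4% and 20.9% of all genes rose. Nr4a3 rose by a log2 fold change of 4.26 (SE 0.56) and Nr4a2 by 2.80 (SE 0.13) with DMSO, both orphan nuclear receptors like Nr4a1, and Ier5l rose by 1.82 and Mycn by 1.11. Mycn had 0 counts in both Nrf2-/- libraries at 1 h and 86 and 94 counts in WT cells with SFN. It was the paralogue called lower there, where 16.2% of all genes were, a call not given here without each Nrf2-/- library. Mycn was also at 0 and 2 counts in the isosmotic Nrf2-/- libraries. Egr4 was too low to be tested.

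Of 13 feedback inhibitors, which include MAP kinase phosphatases and Sprouty proteins, 11 rose and 0 fell between 1 h and 6 h with DMSO, and 12 rose and 0 fell with SFN. Here and for the lists that follow, 20.4% of all genes rose and 22% fell with DMSO, and the SFN shares were 20.9% and 21.7%. Dusp6, a phosphatase of ERK, rose by 4.22 (SE 0.13) with DMSO. Of 24 other immediate-early genes, 18 rose and 2 fell with DMSO and 18 rose and 1 fell with SFN, with Csrnp1 (2.31) and Ptgs2 (3.06) first by adjusted p. At 1 h and 6 h, 0 of either list were called between SFN and DMSO, where 0.0923% and 0.041% of all genes were called higher. Of 11 upstream kinases and factors, 5 rose and 4 fell between 1 h and 6 h with DMSO, with Elk4, an SRF partner, up by 1.63. Of 11 dimer partners and corepressors, 6 rose and 3 fell, with Mnt, a repressor that competes with Myc for its partner, up by 2.57.

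Over the 16 libraries, which share the 6 h contrast, the profiles of Nr4a1 and Arc were the most alike of the 10 (Pearson's r of log2 CPM 0.956, n = 16), followed by Nr4a1 with Myc (0.948) and Arc with Ier3 (0.943). Srf was closest to Egr1 (0.707) and most unlike Ier3 (-0.841). Among 12282 other genes with a mean of at least 50 counts, Itprip (0.961), Junb (0.937), Cldn4 (0.930), Tnfaip3 (0.928) and Plekhg3 (0.926) had the profiles most like the mean profile of the 10, where the median gene had -0.066.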

How the data were processed

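RNA was extracted with TRIzol and sequenced on the NovaSeq platform. The authors deposited raw counts per gene symbol for each library, without normalization. They name Hisat2 as aligner in the methods and Bowtie2 in the submitters' processing notes, with SAMtools, featureCounts and mm10 in both cases. Annotation and strand setting are not given in the sources used here, so reads shared between genes could be split or lost. One field of the labels names primary cells, while the others name mIMCD3, which was used. The deposited files of the isosmotic SFN libraries number the replicates differently from their titles, and the titles were used.

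The 10 genes, the lists and the comparisons were chosen with earlier results of these data known. In R 4.3.3, edgeR 4.0.16 (TMM, filterByExpr, robust quasi-likelihood F-test) was fitted once to all 16 libraries with 1 coefficient a group, and p-values were Benjamini-Hochberg adjusted over 19509 genes, with calls under 0.05. All 10 genes are named, and of each list at most 4 called genes a comparison by adjusted p. The 5 lines without a gene name were left out. CPM and RPKM were computed from the counts after TMM. Intervals are 95%. The p-values rest on the spread between the 2 libraries of a group, pooled per gene over all 16 libraries. The wide Nrf2-/- SFN 1 h pair therefore enters every test of the main fit, also those between WT groups. Alternatives were DESeq2 1.42.0, RLE factors, fits restricted to the libraries compared, a minimum of 10 counts per library, omission of the filter, a replicate block, a 2-fold minimum and leaving out each library. The 12 WT libraries alone and scaling by library totals were added after the data were seen. The fit was also run on counts simulated with the same spread in all libraries. That setting lacks the wide Nrf2-/- SFN 1 h pair, so it does not show how the fit behaves with it.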

Additional observations from a re-analysis of the deposited data

How the results depend on the processing

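The counts of the 10 genes called moved as follows, with moves that were small beside the main count left out. Those left out include the counts of genes that rose from 1 h to 6 h. With a 2-fold minimum, Ier2 (0.44) with DMSO and Myc (0.99) with SFN no longer counted as rising. For SFN against DMSO at 1 h, where 0 were called higher, DESeq2 called 1, the fit on only the libraries compared 5 and that on the 12 WT libraries 1. At 6 h, where 0 were called higher, DESeq2 and the fit without a filter each called 1, and the fits on only the libraries compared and on the 12 WT libraries each called 2. The difference between these effects had 1 call on only the libraries compared, against 0. With a 2-fold minimum, 0 genes fell from 1 h to 6 h with DMSO (2 without it) or SFN (1), and 0 fell within Nrf2-/- cells (1). For Nrf2-/- against WT at 1 h, DESeq2 and no filter each called 1 higher (0), and no filter called 2 and library totals 3 lower (1). Within Nrf2-/- cells no filter called 3 lower and only the libraries compared 0 (1). Leaving out 1 library gave 1 to 2 genes lower from 1 h to 6 h with DMSO (1 without DMSO 6 h replicate 2), 0 to 1 higher and 1 to 4 lower for Nrf2-/- against WT (4 without Nrf2-/- 1 h replicate 1, 3 without replicate 2), and 0 to 1 higher and 0 to 3 lower within Nrf2-/- cells. The cause was not tested.

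Small effects that did not pass changed sign. With library totals these were Egr1 (-0.032) and Srf (-0.048) for Nrf2-/- against WT at 1 h, Egr3 (-0.029) within Nrf2-/- cells and Nr4a1 (0.011) for the 6 h minus 1 h SFN effect, the last also with at least 10 counts in each library (0.012). Leaving out 1 library, SFN against DMSO at 1 h ranged from -0.29 to 0.022 for Egr2 and from -0.060 to 0.17 for Nr4a1. At 6 h it ranged from -0.00089 to 0.078 for Nr4a1, -0.12 to 0.17 for Ier2, -0.015 to 0.11 for Ier3 and -0.027 to 0.042 for Myc. The difference of these effects ranged from -0.13 to 0.10 for Nr4a1 and -0.18 to 0.016 for Srf. Nrf2-/- against WT at 1 h ranged from -0.28 to 0.37 for Egr1, -0.41 to 0.13 for Ier2, -0.43 to 0.14 for Myc and -0.050 to 0.17 for Srf. Within Nrf2-/- cells the ranges were -0.55 to 0.088 for Egr1, -0.13 to 0.59 for Egr2, -0.43 to 0.15 for Nr4a1 and -0.92 to 0.21 for Ier3. Egr3 ranged from -0.89 to 5.18, the latter against a single library with 0 counts, and is no measure of size.

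Over all genes, the ranges below cover first all alternatives and then all fits without 1 library. SFN against DMSO at 1 h called 18 genes higher (13 to 497, and 6 to 9) and 0 lower (0 to 312, and 0). At 6 h it called 8 higher (2 to 79, and 1 to 2) and 0 lower (0 to 27, and 0). The difference of the effects had 0 higher (0 to 34, and 0) and 2 lower (2 to 44, and 1). Nrf2-/- against WT at 1 h had 2991 higher (752 to 3446, and 1833 to 4128) and 3163 lower (899 to 3830, and 2113 to 4789), with 4128 and 4789 without Nrf2-/- 1 h replicate 1. Within Nrf2-/- cells there were 851 higher (3 to 1385, and 325 to 2720) and 548 lower (4 to 755, and 213 to 2395).

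With the replicate number as a block, 6 genes rose and 2 fell from 1 h to 6 h with DMSO, 6 rose and 1 fell with SFN, and 0 of the 70 tested values of the 10 genes changed call or direction. Over all genes the block gave 2 higher for SFN at 6 h, against 8. Deviations of same-numbered libraries correlated at -0.079 to 0.12 over 28 pairs of groups, with 1 over 0.1. These correlations run over all tested genes, so they cannot show a pairing that moved only some genes. The isosmotic SFN libraries were numbered by their titles, which differ from their files. With 2 libraries a group, Egr2 and Egr3 are limited by their low counts.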
